A study of Solanum lycopersicum with 12 samples.

Results

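The loci described here are tomato (Solanum lycopersicum) gene loci on which small RNAs of 24 nt made up most of the reads both in the cotyledon, the seed leaf, and in the callus that formed from it. A locus was taken when the pooled cotyledon libraries held at least 10 reads of 18 to 26 nt on it, the pooled callus libraries held at least 30, and reads of 24 nt made up at least 60% in each pool. Identifiers of the unplaced chromosome 0 were left out. The rule took 1093 of the 34688 loci in the deposited count table. Of these 34688 loci, 8200 had enough reads to be judged, so that the 24-nt loci were 13.3% of them. The loci were thus chosen by their read totals and their 24-nt shares, which are given as a description without a test. The size of the change in level between cotyledon and callus was not used, but loci with too few reads in either tissue could not be taken.

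In flowering plants, small RNAs of 24 nt are typically made by RNA-directed DNA methylation, a pathway worked out mainly in Arabidopsis. There, RNA polymerase IV transcribes a locus, RNA-dependent RNA polymerase RDR2 makes the transcript double-stranded, the Dicer-like enzyme DCL3 cuts it, and Argonaute proteins of the AGO4 group carry the product to transcripts of RNA polymerase V, where cytosine methylation is laid down. The pathway is known for silencing transposons, including those inside or next to genes. Most microRNAs and trans-acting small RNAs are shorter, at 21 or 22 nt, and act on messenger RNA.

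Seedlings were 6 days past sowing when their cotyledons were cut off and placed on SIM medium, at 25 °C under 16 h of light and 8 h of darkness. The 4 groups of 3 libraries were the uncultured cotyledon (day 0) and callus after 12, 14 and 16 days of culture. Genotype and cultivar were not given in the labels used here, and neither was whether replicates came from separate cultures, so the p-values measure only the spread between these libraries, which may be technical. A value is the number of small RNA reads on a gene locus, which is not the level of its messenger RNA. In these bulk samples, fewer cells of a type and less small RNA per cell cannot be told apart.

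The libraries held 456744 to 698312 reads on gene loci. A set of 4 stood apart on the second principal component of all loci tested, with replicate 1 of the cotyledon at 17.3, replicate 3 of day 12 at 13.6, replicate 1 of day 14 at 43.1 and replicate 3 of day 16 at 33.1, while the other 8 lay between -23.0 and -7.11. Cotyledon replicate 1 also stood apart on the 24-nt loci. It was the highest of the 3 cotyledon libraries for 605 of the 1093 loci, against 197 for replicate 2 and 291 for replicate 3. The median log2 ratio of replicate 1 to the mean of the other cotyledon libraries was 0.32 over the 24-nt loci and 0 over all loci tested. Levels compared with the cotyledon are therefore also given without this library.

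The loci carried identifiers only, and no gene name, description or sequence was used for them. The chromosome is read from the number in the identifier, and the genome build is not given in the sources used here.

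Reads of 24 nt, which the rule used, made up 81.3%, 74.7% and 77.3% of the reads on these loci in cotyledon replicates 1, 2 and 3. In the 9 callus libraries the 24-nt share lay between 74.3% and 76.7%. The mean was 77.8% ± 3.34 (SD, n = 3 in each group) for the cotyledon, 75.003% ± 0.586 for day 12, 76.1% ± 0.636 for day 14 and 75.9% ± 0.527 for day 16. Cotyledon replicate 2 lay within the callus range, so the groups overlapped. The next length was 23 nt, with a mean of 12.3% ± 0.723 in cotyledon and between 11.6% and 12.1% in the callus groups. Reads of 21 nt made up 2.66% ± 1.01 in cotyledon and between 2.88% and 3.24% in the callus groups. Reads of 25 nt made up 1.80% ± 0.221 in cotyledon, and the callus means were 2.40%, 2.59% and 2.45%. For 25 nt every callus library, from 2.32% upwards, lay above every cotyledon library, of which the highest held 2.00%. Reads of 26 nt showed the same order, with at most 0.231% in a cotyledon library and at least 0.279% in a callus library.

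**Figure D1:**
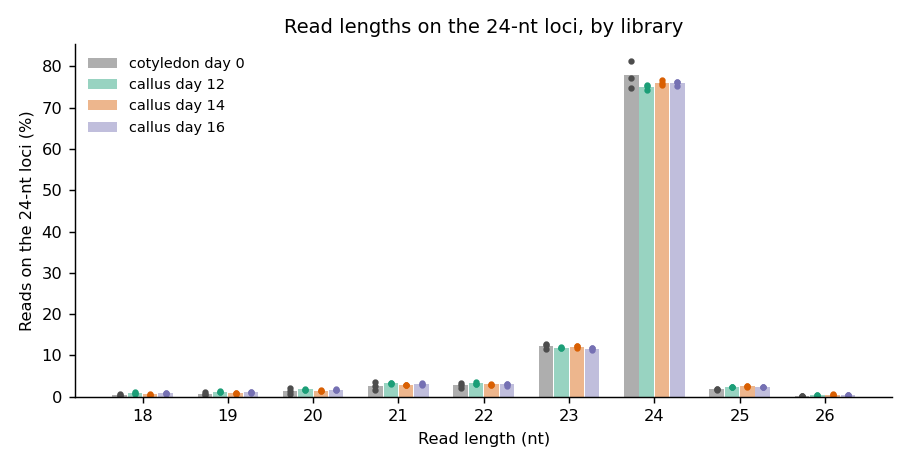
Share of the reads on the 24-nt loci (y axis, percent) at each read length from 18 to 26 nt (x axis), with bars for the group means and 1 point per library. The 24-nt class, which the rule used, holds 74.3% to 81.3% of the reads in every library, the 23-nt class is the second highest, and the 25-nt points of the callus libraries lie above those of the cotyledon.

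The share of 24-nt reads varied from locus to locus. In the pooled cotyledon libraries its quartiles were 68.4%, 75.2% and 83.3%, and in the pooled callus libraries they were 65.1%, 69.7% and 76%. The share was lower in callus than in cotyledon for 761 loci, higher for 331 and equal for 1. It was lower by more than 10 percentage points for 297 loci and higher by more than 10 points for 44. These counts include cotyledon replicate 1 and were not repeated without it. With each locus weighted equally, the share was 79.3%, 71.7% and 75.6% in cotyledon replicates 1, 2 and 3, and 68.9% to 72.6% in the callus libraries. Among all gene reads, 24-nt reads made up 31.5%, 19.1% and 24.1% in these cotyledon libraries and 17.5% to 24.7% in callus. A total of 20 loci had at least 90% of 24-nt reads in both pools, and 252 had at least 75%, while 348 had less than 65% in the lower pool. The second most frequent length was 23 nt on 953 loci, 22 nt on 52, 21 nt on 50 and 25 nt on 17.

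Just inside the minimum share, Solyc12g150120.1 had 60% among 10 cotyledon reads and 67.3% among 101 callus reads. Solyc07g006840.1 had 60% among 60 cotyledon reads and 62.9% among 143 callus reads. Just outside, Solyc01g150165.2 had 61.9% among 202 cotyledon reads and 59.96% among 542 callus reads, and Solyc01g163020.1 had 80% among 60 and 59.9% among 222. The values passed through the minimum without a gap, with 170 of the chosen loci between 60% and 62% and 143 other loci between 58% and 60%.

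Of the 1093 loci, 431 had at least 10 reads in each of the 12 libraries. Among these 431, the most frequent length was 24 nt in every library for 408, and the share was at least 60% in every library for 167. When the rule was applied to the libraries of the other replicates alone, it took 847, 928 and 910 loci with replicate 1, 2 or 3 left out. On those loci the summed reads of the left-out cotyledon library were 24 nt long in 81.5%, 73.8% and 77.1%, and those of the left-out callus libraries in 76.1%, 75.2% and 75.8%.

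Reads were concentrated on few loci. The 1093 loci held 732322 reads over all libraries, with a median of 233 per locus, quartiles of 118 and 571 and a range of 40 to 57843. A single locus held 7.90% of these reads, the 10 with the most reads held 19.2% and the 100 with the most reads held 54.7%. At the other end, 206 loci had under 100 reads and 108 had none in at least 1 library. How reads that map to several places were counted is not given in the sources used here. Near-identical count profiles (r above 0.99 over all length and library columns and totals within 10%) were found for 36 of the loci, in 18 sets, and reads of these may come from shared sequence.

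The 24-nt loci together held 15.7%, 10.2% and 11.6% of the gene reads in cotyledon replicates 1, 2 and 3. They held 9.26%, 9.66% and 9.05% on day 12, 13.8%, 9.74% and 10.98% on day 14, and 11.4%, 11.9% and 11.6% on day 16. The day 12 libraries were lower than all cotyledon libraries, and the day 14 and day 16 libraries overlapped the cotyledon. Per 1000000 reads of the whole library, cotyledon libraries held 23147, 18684 and 19153 reads on these loci, and callus libraries between 12844 and 15576. On that scale no callus library reached a cotyledon library, but the scale moved other loci too. With it, the median log2 change from cotyledon over all loci tested was -0.037, -0.28 and -0.29 on days 12, 14 and 16. Over the 24-nt loci it was -0.54, -0.40 and -0.42. The mean was 20328 ± 2452 reads per 1000000 (SD, n = 3 in each group) for the cotyledon, 13199 ± 316 for day 12, 14299 ± 1216 for day 14 and 14002 ± 135 for day 16. The choice of scale therefore set whether days 14 and 16 lay below the cotyledon. Of all 24-nt reads on gene loci, between 36.3% and 42.3% fell on these loci in each library.

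**Figure D2:**
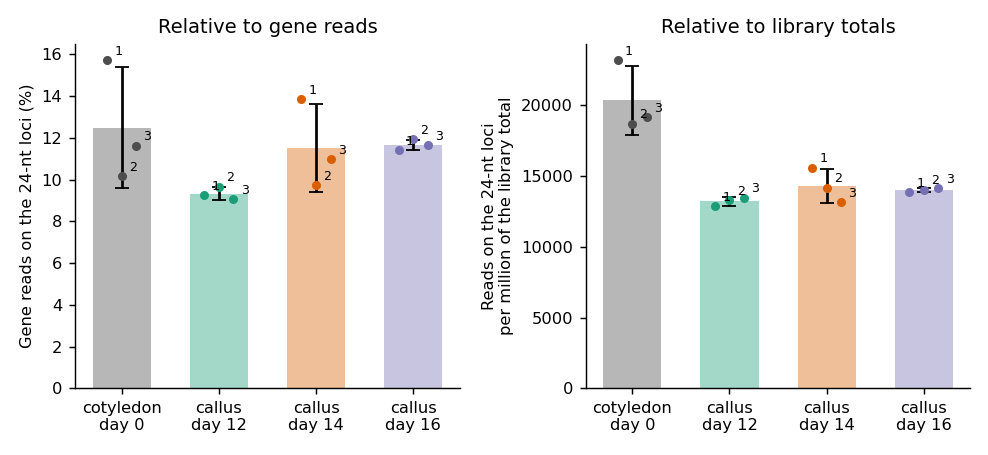
Reads on the 24-nt loci in each of the 12 libraries (x axis, by group), as a percent of gene reads and scaled to the library total (y axes, reads per 1000000), with group means and SD. As a percent of gene reads only day 12 lies wholly below the cotyledon, and scaled to the library total all callus libraries do.

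The comparison of each callus time with cotyledon asked which loci changed in level during culture. Levels are given as CPM, reads per 1000000 reads on the loci tested, with TMM scaling. They were tested with edgeR's quasi-likelihood test over all 6729 loci with enough reads, at a Benjamini-Hochberg adjusted p of 0.05. Of the 1093 24-nt loci, 942 entered the test. The other 151 had too few reads, and since the rule already required reads in both tissues, loci silent in either are not among the 1093.

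On day 12 more of the 24-nt loci fell than rose. The test called 257 of the 942 lower than in cotyledon (27.3%) and 44 higher (4.67%), beside 19.2% lower and 14.4% higher among all loci tested. The median log2 change was -0.44 over the 942 loci, with quartiles of -1.19 and 0.25, and 0.082 over all loci tested. A change of more than 2-fold was seen downwards for 286 loci and upwards for 62. Without cotyledon replicate 1, 170 were called lower (17.5%, beside 13.5% of all loci) and 42 higher (4.32%, beside 10.4%), and the median was -0.22. The number that rose was 24 without cotyledon replicate 3 (2.42%, beside 10.8% of all loci), 29 without cotyledon replicate 2 (2.97%, beside 12.3%), 27 without day 12 replicate 2 (2.76%, beside 10.4%) and 23 without day 12 replicate 3 (2.34%, beside 11.1%).

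On day 14 the 24-nt loci changed about as often downwards as other loci. The test called 153 lower (16.2%) and 100 higher (10.6%), beside 17.3% and 14% of all loci tested. The median log2 change was -0.052, against 0.10 over all loci. Without cotyledon replicate 1, 102 were called lower (10.5%, beside 13.1% of all loci), 83 higher (8.54%, beside 9.999%) and the median became 0.12. With libraries scaled to their totals in place of TMM, 233 were called lower (24.4%, beside 24.2% of all loci) and 46 higher (4.81%, beside 8.09%). On that scale the median was -0.40 over these loci and -0.28 over all loci, and calls that rose made up 16.5% in place of 39.5%. Without cotyledon replicate 2, 60 were called higher (6.13%, beside 10.7% of all loci).

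On day 16 the picture was close to day 14. The test called 184 lower (19.5%) and 88 higher (9.34%), beside 17.5% and 13.4% of all loci tested, with a median log2 change of -0.061 against 0.11. Without cotyledon replicate 1, 133 were called lower (13.7%, beside 13.4% of all loci), 86 higher (8.85%, beside 9.999%) and the median became 0.10. Without cotyledon replicate 2, 58 were called higher (5.93%, beside 10.5% of all loci). Scaled to library totals, 258 were called lower (26.99%, beside 23.9% of all loci) and 38 higher (3.97%, beside 7.46%), with a median of -0.42 against -0.29 over all loci, and calls that rose made up 12.8% in place of 32.4%. At all 3 times most of the tested loci were not called, with 641, 689 and 670 of the 942 on days 12, 14 and 16. The 3 comparisons share the cotyledon libraries and are not independent of each other.

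**Figure D3:**
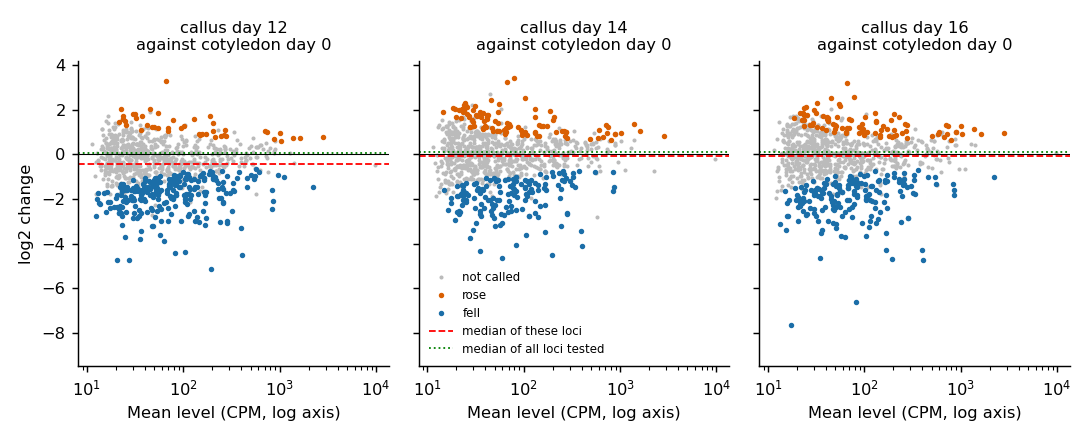
Log2 change of each tested 24-nt locus (y axis) against its mean level (x axis, CPM, log scale) on day 12, day 14 and day 16, with loci past an adjusted p of 0.05 coloured by direction; lines mark the medians of these loci and of all loci tested. The cloud lies lower on day 12, with a median of -0.44, than on days 14 and 16, with medians of -0.052 and -0.061.

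When only reads of 24 nt were counted, the percent of 24-nt loci called lower on day 12 was near that of all loci tested. That fit kept the library sizes and TMM factors of the fit on all lengths. In it 2358 loci were tested, of which 804 were 24-nt loci, so that the lists overlap. No test compared them. On day 12, 221 of the 804 were called lower (27.5%) and 27 higher (3.36%), beside 27% and 7.12% of all loci tested on their 24-nt reads. The median log2 change was -0.55 over the 24-nt loci and -0.47 over all. On day 14, 119 were called lower and 55 higher (beside 17.3% and 10.1% of all), with medians of -0.11 and -0.097. On day 16, 152 were called lower and 54 higher (beside 19.6% and 9.46%), with medians of -0.17 and -0.13. After leaving out cotyledon replicate 1, 129 of 862 24-nt loci were called lower (14.97%, beside 15.5% of all loci) and 29 higher (3.36%, beside 5.45%) on day 12 by their 24-nt reads, with medians of -0.32 and -0.20. For day 14 the counts were then 77 lower and 65 higher (8.93% and 7.54%, beside 10.9% and 9.35%), and for day 16 they were 99 and 51 (11.5% and 5.92%, beside 12.6% and 7.49%).

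Loci with a smaller share of 24-nt reads gave a further comparison for the sum of all lengths. Where the lower of the pooled shares was 40% to 60%, 24.2% of 1187 tested loci were called lower and 3.54% higher on day 12, with a median log2 change of -0.36. Where it was 60% to 75%, 27.5% of 719 were called lower and 5.01% higher, and where it was 75% or more, 26.5% of 223 and 3.59%. Where it was 20% to 40%, 19.01% of 705 were called lower and 9.50% higher, with a median of -0.14. Where it was under 20%, 14.3% of 2913 were called lower and 16.2% higher, with a median of 0.36. On day 14 the classes were closer together, with 16.9% called lower under 20%, 17.3% at 20% to 40%, 15.8% at 40% to 60%, 15.9% at 60% to 75% and 17.5% at 75% or more. On day 16 the same classes had 15.7%, 18.4%, 17.4%, 18.8% and 21.97% called lower. With cotyledon replicate 1 left out, the classes in this order had 12.0%, 12.0%, 14.1%, 17.2% and 18.6% called lower on day 12. Of the 150 loci that met the same rule on 21-nt reads, 138 were tested, and 32 were called lower and 38 higher on day 12, with a median of -0.046. None of these differences between lists was tested.

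Depth moved with the number of calls. On day 12, 18.7% of the 342 24-nt loci with under 200 reads were called lower, beside 13.5% of all loci in that range. With 200 to under 1000 reads it was 33.6% of 435, beside 24.9%. With 1000 reads or more it was 28.5% of 165, beside 30.4%, and 10.3% were called higher, beside 18.9%. Without cotyledon replicate 1, the percents called lower on day 12 in these classes were 10.5%, 22.99% and 18.8%, beside 8.87%, 19.2% and 25.2%. On day 14 the 24-nt loci had 11.1%, 20.2% and 16.4% called lower, beside 13.3%, 20.9% and 27.3%. On day 16 they had 13.2%, 24.8% and 18.8%, beside 13.5%, 21.6% and 25.3%. The percent called lower was thus above that of all loci on day 12 in both classes below 1000 reads and on day 16 in the middle class, and below it otherwise.

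The authors' deposited table of their own 24-nt comparisons listed 1053 of the 1093 loci. On day 12 the authors' deposited table gave an adjusted p for 1035 of these, of which 102 were lower and 53 higher at 0.05, beside 7.69% and 4.63% of all its loci. On day 14 the authors' deposited table had 97 lower and 55 higher of 1029, beside 8.76% and 4.78%, and on day 16 it had 112 lower and 52 higher of 1030, beside 9.72% and 4.18%. The median log2 change of the listed loci in the authors' deposited table was 0.0014, 0.056 and 0.042 at the 3 times. Over all its loci it was 0.077, 0.041 and 0.015. These medians come from the authors' own fit, and the difference from the 24-nt fit above was not examined.

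The most abundant locus, Solyc12g010490.3, carried 57843 reads, of which 94.5% in cotyledon and 93.4% in callus were 24 nt long. Its level was 18090.3, 8645 and 5164 CPM in the cotyledon libraries, 5745, 8335 and 9022 CPM on day 12, 13897, 8105 and 5846 CPM on day 14, and 13739.5, 10223 and 9658 CPM on day 16. The replicates of one tissue differed as much as the groups did. The log2 changes were -0.47, -0.20 and 0.08 with SE of 0.38 each, and edgeR's adjusted p were 0.362, 0.731 and 0.901. Without cotyledon replicate 1 the log2 changes of Solyc12g010490.3 were 0.19, 0.45 and 0.70, with edgeR's adjusted p of 0.730, 0.388 and 0.170.

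Solyc09g092270.3, with 17175 reads, was higher in all callus libraries than in any cotyledon library. Its level was 1604, 1796 and 1873 CPM in cotyledon, 2577, 3491 and 3058 CPM on day 12, 2899.9, 3031 and 3501 CPM on day 14, and 4277, 3040.4 and 2993 CPM on day 16. It rose by 0.79, 0.84 and 0.97 on the log2 scale with edgeR's adjusted p of 0.0116, 0.00857 and 0.00326. Without day 12 replicate 2 the first adjusted p was 0.0508, and with library totals as the scale the second was 0.0874. Solyc08g078030.5 likewise had no overlap, with 962, 995 and 983 CPM in cotyledon and 1376, 1623 and 1905 CPM on day 12. It reached 2136, 2009 and 1889 CPM on day 14 and 1749, 1865 and 1877 CPM on day 16. It rose by 0.74, 1.04 and 0.90 on the log2 scale with SE of 0.21 each and edgeR's adjusted p of 0.0110, 0.00106 and 0.00306, of which the first was 0.0595 without day 12 replicate 3.

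Solyc04g081110.1, with 13088 reads, went the other way. Its level was 4369.9, 3214 and 3271 CPM in cotyledon, 905, 1702 and 1388 CPM on day 12, 3450.3, 2005 and 1092 CPM on day 14, and 1645, 1479 and 2304 CPM on day 16. It fell by 1.44 on the log2 scale on day 12 (SE 0.35, edgeR's adjusted p = 0.00379) and fell by 1.00 on day 16 (SE 0.34, adjusted p = 0.0329). The day 16 call was lost without cotyledon replicate 1 (adjusted p = 0.117), cotyledon replicate 2 (0.0533), day 16 replicate 1 (0.0987) or day 16 replicate 2 (0.125). On day 14, where replicate 1 lay inside the cotyledon range, the log2 change was -0.73 (adjusted p = 0.113), and without that library it was -1.20 (adjusted p = 0.0118).

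Larger rises were seen on loci with fewer reads. Solyc06g066420.5, with 404 reads in all, had 9.98, 8.73 and 7.41 CPM in cotyledon, from only 5, 4 and 3 reads. It had 53.1, 87.0 and 123 CPM on day 12, 133, 86.9 and 36.4 CPM on day 14, and 81.5, 66.2 and 103 CPM on day 16. Every callus library was above every cotyledon library, which the rule that named it required. The locus rose 9.70-fold, 9.48-fold and 9.28-fold (log2 changes of 3.28, 3.25 and 3.21, SE 0.51 to 0.52, edgeR's adjusted p of 0.000106, 0.000130 and 0.000135). This locus had the largest rise on day 12 under the rule for named loci, and Solyc03g006020.3 had the second largest. The latter, with 272 reads, had 14.0, 10.9 and 7.41 CPM in cotyledon and 37.7, 50.6 and 47.9 CPM on day 12, a log2 change of 2.03 (SE 0.46, edgeR's adjusted p = 0.00248). Its log2 changes on days 14 and 16 were 2.46 and 2.52. All of these rest on 7, 5 and 3 reads in the cotyledon libraries.

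In mean level Solyc09g161200.1 was highest on day 14, though its day 14 and day 16 libraries overlapped and no test set those days apart. It had 23.9, 13.1 and 7.41 CPM in cotyledon, 39.4, 63.3 and 29.2 CPM on day 12, 178, 239.8 and 83.5 CPM on day 14, and 35.2, 87.6 and 148 CPM on day 16. The rise was 10.9-fold on day 14 (log2 change of 3.45, SE 0.55, edgeR's adjusted p = 0.000151) and 5.88-fold on day 16 (2.56, SE 0.56, adjusted p = 0.00205). The cotyledon libraries held only 12, 6 and 3 reads on this locus. On day 12 the log2 change was 1.53 (adjusted p = 0.0471), a call that was lost without cotyledon replicate 2 (0.104), cotyledon replicate 3 (0.146), day 12 replicate 1 (0.0549) or day 12 replicate 2 (0.175). It was also lost with library totals as the scale (0.0711) and with 24-nt reads alone (0.124).

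The clearest fall was that of Solyc06g073220.1, with 1106 reads. Its level was 1022, 633 and 459.6 CPM in cotyledon, 12.0, 23.7 and 22.9 CPM on day 12, 43.5, 26.1 and 23.6 CPM on day 14, and 15.4, 23.4 and 42.9 CPM on day 16. The lowest cotyledon library thus lay far above the highest callus library. Solyc06g073220.1 was named for a large fall without overlap on days 12 and 14, so this separation is no added support. It fell with log2 changes of -5.16, -4.50 and -4.68 on days 12, 14 and 16 (SE 0.43, 0.41 and 0.42, edgeR's adjusted p of 1.61e-07, 3.46e-07 and 3.05e-07), or 35.7-fold, 22.7-fold and 25.7-fold. In cotyledon 88.4% of its reads were 24 nt and 6.68% 23 nt long, and in callus 77.1% and 16.9%.

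Solyc01g107740.3 had 44, 18 and 14 reads in the cotyledon libraries and 1, 0 and 2 reads on day 12. The ratio of the day 12 level to the cotyledon level was 0.0317, with an exact 95% interval of 0.00640 to 0.0964 that covers counting error only, and edgeR's adjusted p was 0.000178. It had 11, 6 and 5 reads on day 14 and 1, 6 and 8 reads on day 16. The calls at those times (adjusted p = 0.0232 and 0.00772) were lost without cotyledon replicate 1, at 0.208 and 0.0867, and the day 14 call also without day 14 replicate 2 (0.0920) or replicate 3 (0.0780).

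Solyc01g108350.5 was lowest on day 14. It had 184, 98.2 and 141 CPM in cotyledon, 10.3, 52.2 and 79.2 CPM on day 12, 4.35, 5.21 and 6.42 CPM on day 14, and 44.1, 15.6 and 70.9 CPM on day 16. It fell 25.3-fold on day 14 (log2 change of -4.66, SE 0.69, edgeR's adjusted p = 6.07e-05), a size that rests on 2, 3 and 3 reads in the day 14 libraries. The changes of -1.59 on day 12 and -1.70 on day 16 (adjusted p = 0.0259 and 0.0208) were each lost when cotyledon replicate 1 or certain other single libraries were left out. No test set day 14 apart from the other callus times for this locus.

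The largest falls on day 16 were on loci that were nearly or wholly without reads there. Solyc12g011200.3 had 264, 99 and 60 reads in cotyledon, 11, 13 and 0 on day 12, 0, 24 and 4 on day 14, and 0, 4 and 0 on day 16. The log2 change on day 16 was -6.63 (SE 1.04, edgeR's adjusted p = 0.000105), and it rests on those 4 reads. Solyc08g082160.3 had 35, 12 and 22 reads in cotyledon, 2, 9 and 5 on day 12, 4, 12 and 1 on day 14, and none in the day 16 libraries. With a floor of 3 counts over the group it was at least 24.2-fold lower on day 16 (edgeR's adjusted p = 0.000197).

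The loci with the smallest spread over the 12 libraries among those of at least 100 CPM were Solyc01g005660.3 and Solyc08g062800.3. The former lay between 346 and 559 CPM and the latter between 147 and 243 CPM, each with an SD of 0.22 on the log2 scale. Neither was called at any time, with log2 changes from -0.32 to 0.21. The choice by spread over cotyledon and callus together favoured small changes, so this is not a separate finding.

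Of 32 changes against cotyledon that were called for the named loci, 25 were still called in the same direction without cotyledon replicate 1 and 7 were lost. The lost ones were those of Solyc04g081110.1 on day 16, Solyc01g107740.3 on days 14 and 16, Solyc01g108350.5 on days 12 and 16, and Solyc08g082160.3 on days 12 and 14. Without that library the log2 changes of Solyc06g073220.1 were -4.76, -4.12 and -4.31, and those of Solyc06g066420.5 were 3.43, 3.38 and 3.33. The latter rest on 4 and 3 reads in the cotyledon libraries kept.

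**Figure D4:**
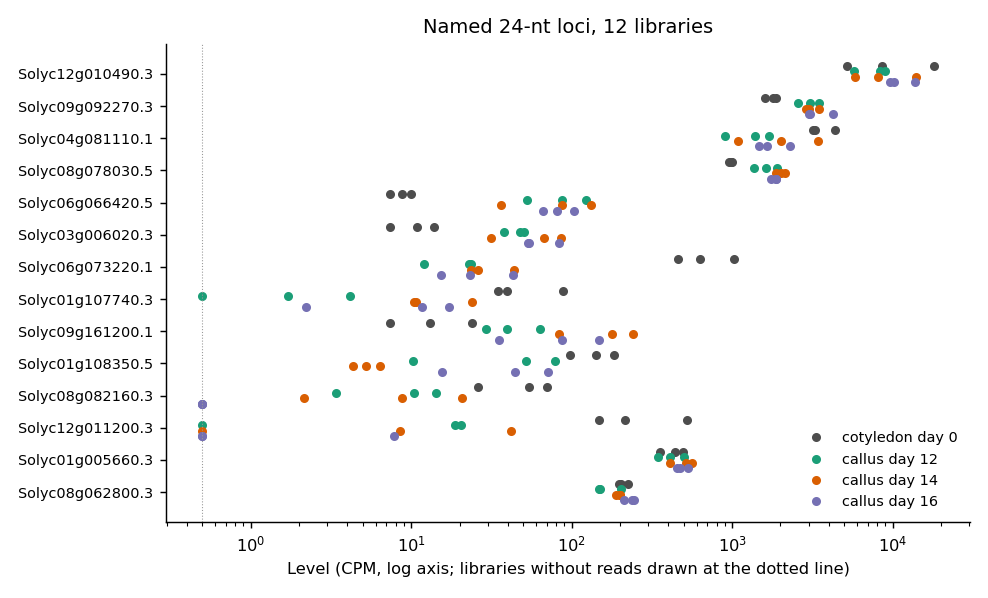
Level of the named loci (x axis, CPM, log scale) with 1 row per locus and 1 point per library, coloured by group; libraries without reads are drawn at the dotted line. For Solyc06g073220.1 the callus points, at 12.0 to 43.5 CPM, lie left of the cotyledon points, at 459.6 to 1022 CPM, and for Solyc06g066420.5 they lie right of them.

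Among the callus times, no 24-nt locus passed edgeR's test in any of the 3 comparisons, beside 0% of all loci on day 14 against day 12, 0.0594% higher and 0% lower on day 16 against day 12, and 0% on day 16 against day 14. An unadjusted p under 0.05 was reached by 126, 105 and 45 of the 942 loci in that order, beside 602, 571 and 356 of all 6729. DESeq2 called 5, 1 and 0 of the 24-nt loci. Among all 6729 it called 12 higher and 5 lower, 11 and 3, and 0 and 2. The median log2 change was 0.37 from day 12 to day 14 and 0.33 from day 12 to day 16, against 0.0012 and 0.016 over all loci tested, and -0.034 from day 14 to day 16. Loci with a lower pooled share of 40% to 60% had medians of 0.35 and 0.30 in the first 2 comparisons, and all loci tested on their 24-nt reads had 0.36 and 0.28. With library totals as the scale these medians were 0.11 and 0.062 for the first 2 comparisons.

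The 24-nt loci lay on all 12 chromosomes. Of the loci with enough reads, they made up between 9.19% on chromosome 2 and 17.6% on chromosome 12, with 120 of 1048 (11.5%) on chromosome 1. With the identifiers of each chromosome split by their order into 5 equal parts, they made up 16.3% of the lowest-numbered part and 13.7%, 12.0%, 9.89% and 11.2% of the following ones. Identifier numbers of 150000 or more, which stand outside the main numbering, held 105 of the 24-nt loci, or 27.2% of such loci with enough reads, against 12.6% for the other numbers. Of the loci with any read, the 24-nt loci were 3.91% of 2686 and 3.41% of 29004, so the contrast was small on that base. The share also moved with depth. It was 6.59% of loci with 40 to under 100 reads, rose through 12.2%, 17.8% and 25.98% to 33.9% of those with 1000 to under 5000 reads, and was 17.4% of the 92 with 5000 or more. Whether depth takes part in the differences between chromosomes was not tested.

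**Figure D5:**
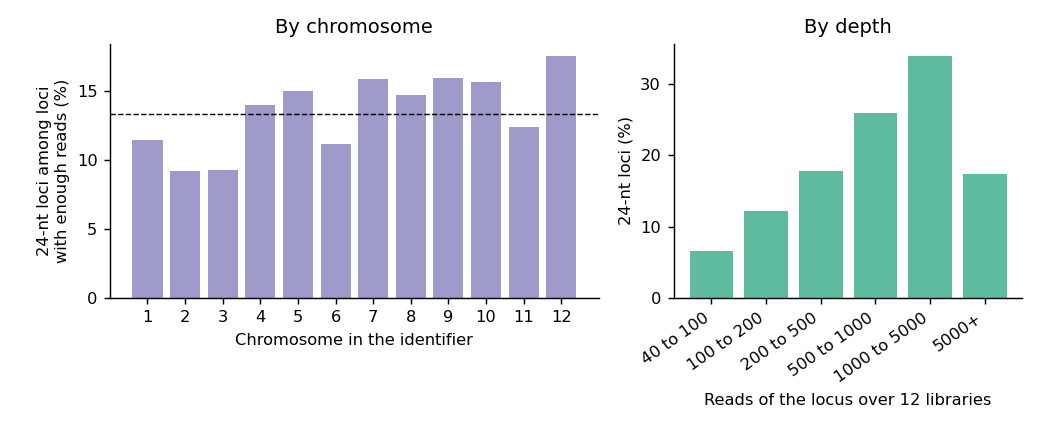
Share of loci with enough reads that are 24-nt loci (y axis, percent), by chromosome number in the identifier and by total reads over the 12 libraries (x axes); the dashed line is the 13.3% over all chromosomes. The bars run from 9.19% to 17.6% over the chromosomes, and from 6.59% to 33.9% over the read classes.

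Some of the 24-nt loci were neighbours by identifier. An adjacent identifier in the count table was also a 24-nt locus for 168 of them (15.4%), against 7.58% of other loci with enough reads. These formed 90 pairs, of which 6 had near-identical counts, in 69 runs of 2 loci and 9 runs of 3 or more, the longest with 4. In 76 pairs both loci were tested. On day 12 both fell in 13 pairs, both rose in 1, 27 had a single call and 0 had calls in opposite directions. On day 14 both fell in 8 and both rose in 2, and on day 16 both fell in 8, both rose in 3 and 1 pair went in opposite directions. With cotyledon replicate 1 left out, 77 pairs were tested, and both loci fell in 9, 5 and 6 pairs and both rose in 1, 2 and 3 on days 12, 14 and 16. No such count was made over neighbouring pairs of all loci tested. Whether neighbours shared a direction more often than the call rates alone would give was not tested.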

How the data were processed

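Small RNA libraries were made from total RNA by ligating adapters to both RNA ends, reverse transcription, PCR and gel selection, per the labels' protocols. The submitters' processing notes name fastp, Bowtie and DESeq2; versions, the genome build and the handling of reads with several matches are not given in the sources used here. The authors deposited raw counts per gene locus for each of 9 read lengths and 12 libraries, per the file headers. They also deposited TPM values by length and strand class, used only to recover library totals of 2769024 to 4799134 reads (all 216 values were within 0.0534 of a whole read count). Another deposited table held their own log2 fold changes and p-values for each length. No column of other samples was present (0).

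Groups came from sample titles. Counts were summed over 18 to 26 nt and tested over all 12 libraries in 1 fit with edgeR 4.0.16 (TMM, filterByExpr, quasi-likelihood F test, Benjamini-Hochberg at 0.05; common biological coefficient of variation 0.333), after a test on simulated data. The SE is the log2 change over the square root of F. CPM uses the reads of the loci tested, scaled by TMM. Reads carry no molecular identifiers, so intervals and floors cover counting error only. DESeq2 1.42.0, other scales, filters, member rules, 24-nt reads alone and left-out libraries were alternatives.

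Named loci were the 4 with the highest mean CPM, the 2 with the smallest spread of log2 CPM among those of at least 100 CPM, the 2 on either side of the minimum share, and per comparison with cotyledon up to 2 with the largest rise and 2 with the largest fall among those with an adjusted p under 0.05, at least 10 CPM and no overlap of libraries. The loci, lists and alternatives were chosen with earlier results of these data known. No row of the RefSeq gene table carried a tomato locus identifier of this kind (0), so names are not given.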

Additional observations from a re-analysis of the deposited data

How the results depend on the processing

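Over 42 changes of named loci, 621 of 666 alternative values kept their side of the threshold, 41 lost the call and 4 gained it. Among changes that were called no value took the other sign (0), and among those not called 20 values did, in 7 changes. No filter on low counts gave 25 rising 24-nt loci on day 12 (2.29%, beside 3.18% of all 32258 loci). It gave 10, 9 and 11 calls in the comparisons of day 14 with 12, 16 with 12 and 16 with 14. Among all 32258 loci these had 21 higher and 15 lower, 33 and 18, and 13 and 19. DESeq2 gave 5 and 1 in the first 2. Scaled to library totals, 46 rose and 233 fell on day 14 (median -0.40) and 38 rose on day 16 (median -0.42), the medians among callus times were 0.11 and 0.062, and the log2 ratio of the loci's summed reads to cotyledon was -0.51 on day 14 and -0.54 on day 16. Reads of 24 nt alone gave 27, 55 and 54 rising loci on days 12, 14 and 16. With these and without cotyledon replicate 1, a setting chosen after seeing the data, 29 rose and 129 fell on day 12, 65 and 77 on day 14, and 51 and 99 on day 16. Without the 4 libraries that stood apart the day 16 median was 0.088, and 2 loci were called between days 16 and 14, as without the 3 callus ones (2). Over all loci tested those fits called 2 higher and 7 lower of 6932, and 2 higher and 9 lower of 7327.

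A minimum share of 50% took 1912 loci. Of the 1612 tested, 430 fell on day 12 (26.7%), and 166 rose and 260 fell on day 14 (10.3% and 16.1%). On day 16 the counts were 140 and 303 (8.68% and 18.8%). A minimum of 75% took 252. Of the 223 tested, 8 rose and 59 fell on day 12 (3.59% and 26.5%). The counts were 28 and 39 on day 14 (12.6% and 17.5%) and 23 and 49 on day 16 (10.3% and 21.97%). Over all loci tested the percents higher and lower were 14.4% and 19.2% on day 12, 14% and 17.3% on day 14, and 13.4% and 17.5% on day 16. Minima of 30 and 90 reads took 671, with 28 rising on day 12 (4.17%) and 60 on day 14 (8.94%), and requiring 10 reads and 60% in every library took 167. The number of loci taken differed between these rules, so the counts cannot be compared without the percents, which differed too. The 24-nt share of reads was 72.4%, 73.7% and 73.1% on days 12, 14 and 16 and 76.1% in cotyledon without the 10 loci with the most reads, and 69.3%, 71.8%, 70.7% and 75.5% in that order with each locus weighted equally. The cause of these shifts was not tested.

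Leaving out 1 library at a time gave 23 to 51 rising and 170 to 236 falling loci on day 12. These were 2.34% to 5.14% and 17.5% to 24.01%, beside 10.4% to 12.3% and 13.5% to 15.2% of all loci. On day 14 the counts were 60 to 83 and 102 to 143. As percents they were 6.13% to 8.54% and 10.5% to 14.6%, beside 9.88% to 10.7% and 12.7% to 13.3%. On day 16 the counts were 58 to 94 and 133 to 169. As percents they were 5.93% to 9.51% and 13.7% to 17.1%, beside 9.56% to 10.99% and 12.9% to 13.7%. The percents of all loci lay below those with no library left out. On days 12, 14 and 16 the medians ran from -0.53 to -0.22, -0.13 to 0.12 and -0.17 to 0.10. Among callus times, 0 to 1 were called between days 14 and 12 (median 0.26 to 0.48), 0 between days 16 and 12 (0.22 to 0.44) and 0 to 1 between days 16 and 14 (-0.080 to 0.056). The rule took 847 to 928 loci without 1 replicate number. Whether replicate numbers pair the libraries is not given in the labels. Deviations from the group means correlated from -0.26 to 0.20 for same-numbered libraries and from -0.22 to 0.33 for others. With 3 libraries per group these values cannot decide it. A replicate block gave 37 rising and 242 falling loci on day 12 (3.93% and 25.7%, beside 13.3% and 18.2% of all loci). For day 14 it gave 95 and 148 (10.1% and 15.7%, beside 12.8% and 16.2%). For day 16 it gave 84 and 176 (8.92% and 18.7%, beside 12.2% and 16.7%). It ended 2 calls of named loci, that of Solyc04g081110.1 on day 16 (adjusted p = 0.0541) and that of Solyc09g161200.1 on day 12 (adjusted p = 0.0688).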
